A study of Homo sapiens with 4 samples.

Results

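GDF15 and 9 other genes of TGF-beta family signalling were followed in temozolomide-resistant glioma cells: the ligands TGFB1, TGFB2, TGFB3, INHBA and BMP4, the receptors TGFBR1 and TGFBR2, the inhibitor SMAD7 and the target TGFBI. These 10 genes, of 58219 in the deposited table, were chosen by their roles and with the parental-to-resistant fold changes of these same libraries already known. Their own values are therefore a description, and calls given for them are not read as tests. Of 124 further pathway genes listed by textbook role, 94 were tested. These lists, too, were put together with earlier results of these data known.

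The material was GBM8401, a human malignant glioma line. The parental group held 2 libraries of GBM8401 cells, labelled parental, and the resistant group held 2 libraries of a GBM8401 line labelled TMZ-resistant, raised over 140 days in medium with 200 µM temozolomide (TMZ), an alkylating drug given against glioblastoma. Both were grown in RPMI1640 with serum and antibiotics, and the study profiled mRNAs and long noncoding RNAs linked to resistance. The labels name no separately derived resistant lines. The p-values are therefore read as measuring the spread between cultures and not between independently derived lines. Whether drug was present at harvest is not stated in the labels.

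Library totals were 23163310 to 25832511 scaled fragments, the deposited unit: fragments per gene times 1 factor per library, not divided by gene length. The smallest number of fragments behind any value of the 10 genes was 114, for SMAD7. As a check of the labelled cell type, the glial and glioma markers VIM, NES, CD44, EGFR, SOX9 and OLIG2 were detected, whereas GFAP, S100B, SOX2 and PTPRZ1 were below 1 TPM in both group means. TPM is a level per gene length, scaled to the same sum in every library. The summed level of 10 such markers was 3359 to 3454 TPM in parental and 2327 to 2515 TPM in resistant libraries, with 4 of the 6 tested markers called lower. Most of this sum was VIM (means of 2577 and 1803 TPM), and EGFR and OLIG2 were not called. The summed level of 6 epithelial markers was 858 to 898 TPM and 1646 to 1679 TPM. Most of it was KRT8 (means of 158 and 354 TPM) and KRT18 (622 and 1198 TPM), both called higher. EPCAM, between 5.56 and 12.4 TPM, CDH1 and KRT19 overlapped between the groups, and CLDN4, at a log2 fold change of −0.31, was not called. Hematopoietic markers summed to 44.2 to 50.6 TPM and 85.4 to 86.9 TPM, mostly CD68, with AIF1 at 0. Endothelial markers summed to 41.8 to 47.2 TPM and 27.4 to 31.7 TPM, and 3 of 6 were called lower: TIE1 by 13.5-fold, CDH5 by 2.46-fold and TEK by 1.31-fold. Fibroblast and mural markers summed to 187 to 241 TPM in parental and 216 to 276 TPM in resistant libraries, and 0 of 5 tested were called. Neuronal markers summed to 5.37 to 6.07 TPM and 8.02 to 8.90 TPM, with RBFOX3 called higher by 3.00-fold. The part of these shifts in the results below was not tested, and in bulk RNA fewer cells of a type and less RNA per cell cannot be told apart.

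TGF-beta family ligands are secreted dimers. TGF-beta is released in a latent complex and, once active, binds TGFBR2, which phosphorylates TGFBR1. That receptor then phosphorylates SMAD2 and SMAD3, which enter the nucleus with SMAD4. Activins use related receptors and the same SMADs, whereas BMPs act through SMAD1, SMAD5 and SMAD9. SMAD7 is a feedback inhibitor. GDF15 is a distant family member that is induced by cellular stress and signals through GFRAL with the co-receptor RET. In glioblastoma, TGF-beta is known for immune suppression and for a mesenchymal, invasive cell state.

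The sequences upstream of GDF15 and TGFB2 are shown because these were the 2 members higher in resistant cells without overlap between the groups. Each is the 250 bases before a RefSeq transcript start (GRCh38.p14, plus strand), at chr19:18385908-18386157 for GDF15 and chr1:218345086-218345335 for TGFB2. Capitals mark matches on either strand to 3 motifs. These are the TATA box, searched as TATAAA, the GC box, searched as GGGCGG, and the SMAD box, searched as CAGAC, which do not overlap one another here.
GDF15: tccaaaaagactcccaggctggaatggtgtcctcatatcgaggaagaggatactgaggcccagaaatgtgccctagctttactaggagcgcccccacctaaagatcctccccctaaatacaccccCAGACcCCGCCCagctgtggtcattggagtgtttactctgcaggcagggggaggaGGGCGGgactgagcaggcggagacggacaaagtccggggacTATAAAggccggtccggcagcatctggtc
TGFB2: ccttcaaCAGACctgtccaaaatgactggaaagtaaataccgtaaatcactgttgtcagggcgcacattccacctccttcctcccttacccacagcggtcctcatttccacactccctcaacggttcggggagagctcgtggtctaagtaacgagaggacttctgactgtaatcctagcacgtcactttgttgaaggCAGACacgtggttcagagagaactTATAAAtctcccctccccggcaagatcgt
Both windows held a TATA box 29 to 24 bases before the start, a motif in 10.7% of the 35116 RefSeq windows of this length. The box was not particular to the higher members. Of the 10 genes, 5 had it, the others being INHBA, SMAD7 and TGFB3, all lower in both resistant libraries. Some of the 10 genes had several windows. GDF15 had GC boxes at 119 to 114 and 70 to 65 bases before the start and a SMAD box at 125 to 121. TGFB2 had SMAD boxes at 243 to 239 and 53 to 49, the latter sharing its last base with an E-box (CACGTG). The window upstream of TGFBI, the member with the largest decrease, held 3 GC boxes and neither of the other capitalised motifs. Of all windows, 42.6% held a GC box and 38% a SMAD box. Each of these 2 motifs was found for 6 of the 10 genes, the SMAD box also for BMP4, SMAD7, TGFB3 and TGFBR1. Other motifs searched on both strands included the SMAD palindrome GTCTAGAC (0.182% of windows), the cAMP response element TGACGTCA (1.65%), the AP-1 site TGANTCA (6.57%), the ATF4 composite element TGATGNAAN (3.13%), the EGR site GCGNGGGCG (8.41%) and the E-box (6.34%). None of these lay in the GDF15 window. Some GENCODE 29 transcripts of GDF15 start further upstream and carry an exon across this window, and the GENCODE start of TGFB2 lies downstream of the RefSeq start used.

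GDF15 had by far the largest difference of the 10 genes. Its gene (ENSG00000130513, GRCh38 chromosome 19, 18374731 to 18389176, plus strand) stood at 403 and 441 in parental against 6571 and 5809.9 in resistant libraries, in deposited units. Both resistant libraries lay more than 10-fold above both parental ones. The means were 422 ± 26.9 and 6190.4 ± 538 (SD, n = 2). The difference was 14.6-fold, and the log2 fold change was 3.87 ± 0.10 (SE) on the log2(value + 1) scale. It ranked 14 from the top among the log2 fold changes of 16132 genes tested. Over 12 alternative settings the value ranged from 3.78 to 3.97.

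**Figure D1:**
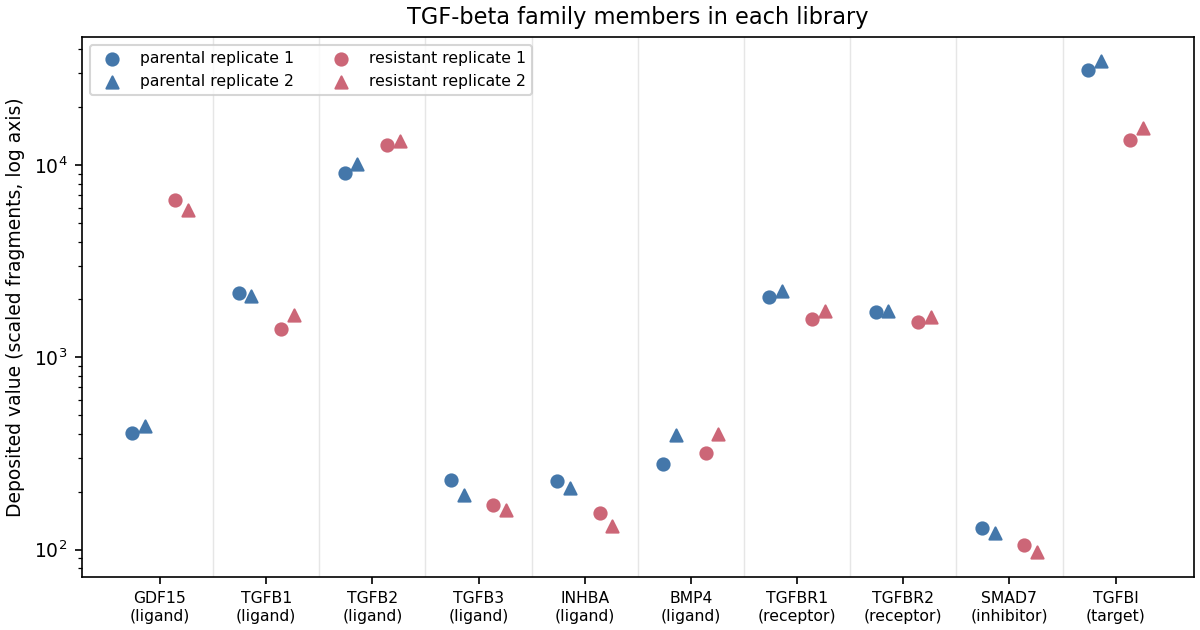
Deposited value (scaled fragments, log axis) of each of the 10 genes in the 4 libraries, circles for replicate 1 and triangles for replicate 2. GDF15 lies far higher in both resistant libraries, TGFBI lies lower, and the BMP4 values of the groups interleave.

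TGFB2 was the other member higher in resistant cells without overlap. It encodes the TGF-beta isoform first described as a T cell suppressor from glioblastoma. Its deposited values were 9077 and 10166 in parental against 12747 and 13309 in resistant libraries (chromosome 1, 218346235 to 218444619, plus strand). The groups did not overlap, and the log2 fold change was 0.44 ± 0.08 (SE), or 1.36-fold.

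TGFB1, the most widely expressed isoform, went the other way. Its values were 2157 and 2089 in parental against 1409 and 1667 in resistant libraries (chromosome 19, 41301587 to 41353911, minus strand). The resistant libraries were both below the parental ones, with a difference on the log2 scale of −0.47 ± 0.10 (SE), or 1.38-fold lower. TGFB3, the isoform best known from palate development, had values of 231 and 193 against 170.2 and 160.5 (chromosome 14, 75958099 to 75982991, minus strand). Here the groups lay close together, at a log2 fold change of −0.35 ± 0.16 (SE).

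INHBA encodes the activin A subunit. It stood at 229 and 208 in parental against 155 and 133 in resistant libraries (chromosome 7, 41667168 to 41705834, minus strand), without overlap. Its log2 fold change was −0.60 ± 0.16 (SE), or 1.51-fold lower. BMP4, which activates the BMP branch, had values of 279.8 and 393 in parental against 318 and 397 in resistant libraries (chromosome 14, 53949736 to 53958761, minus strand). These groups overlapped, the spread within each exceeded the difference of the means, and the log2 fold change was 0.10 ± 0.19 (SE).

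Among the receptors, TGFBR1 had values of 2057 and 2213 in parental against 1584 and 1750.4 in resistant libraries (chromosome 9, 99104038 to 99154192, plus strand). It was lower in both resistant libraries, by a difference on the log2 scale of −0.36 ± 0.09 (SE), or 1.28-fold. TGFBR2, the ligand-binding partner, differed less, with 1712 and 1752 against 1519 and 1622 (chromosome 3, 30606502 to 30694142, plus strand) and a log2 fold change of −0.14 ± 0.08 (SE). The inhibitor SMAD7 had the lowest deposited values of the 10 genes, 129 and 122 against 106 and 96.8 (chromosome 18, 48919853 to 48952052, minus strand). Its log2 fold change was −0.31 ± 0.18 (SE).

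TGFBI, a secreted matrix protein named for its induction by TGF-beta, had the highest deposited values and the largest decrease. Its values were 31338 and 34692 in parental against 13564 and 15640.2 in resistant libraries (chromosome 5, 136028895 to 136063818, plus strand). The lowest parental value was about 2 times the highest resistant one, and the log2 fold change was −1.18 ± 0.09 (SE), or 2.26-fold lower. TGFBI was lower in the same libraries in which TGFB2 was higher and TGFB1 and TGFBR1 were lower.

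**Figure D2:**
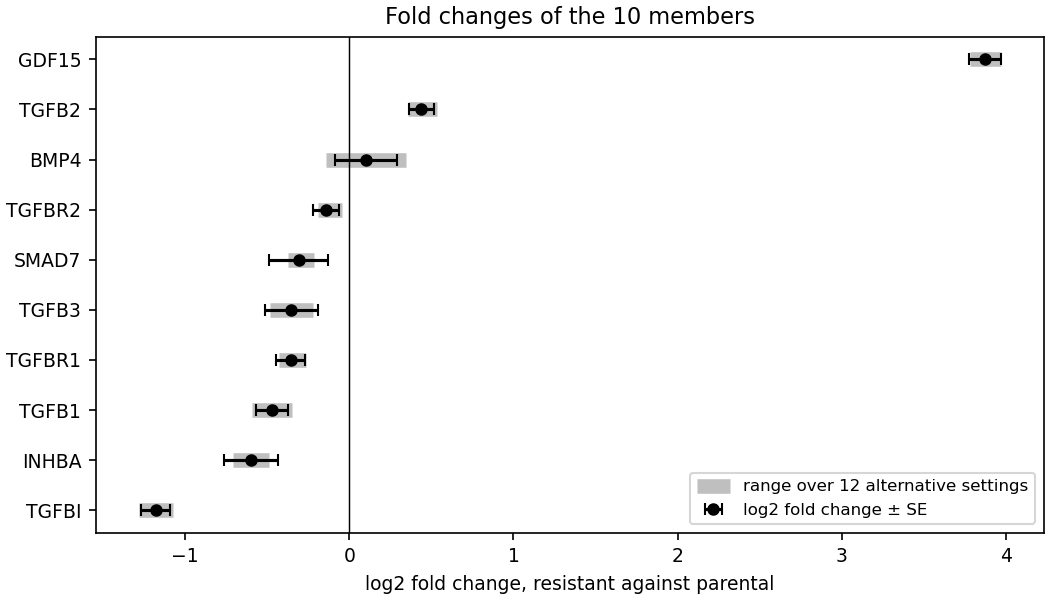
Log2 fold change of each gene, resistant against parental, with its SE (points and bars) and the range over 12 alternative settings (grey). GDF15 stands at 3.87 and TGFBI at −1.18, and the other 8 genes lie between −0.60 and 0.44.

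With limma and an adjusted p under 0.05 over all genes, 2 of the 10 genes were called higher (GDF15 and TGFB2) and 4 lower (TGFB1, INHBA, TGFBR1 and TGFBI). Of all 16132 genes tested, 37.1% were called, 16.2% higher and 20.9% lower. In 9 of the 10 the groups did not overlap, against 68.6% of all genes. Nothing is read from these counts, from the single calls, from how they hold across settings or from the median, because the members were selected on this comparison. Without resistant replicate 1 the 4 lower calls became 2, those of TGFB1 and TGFBR1 being lost, although all 10 directions held there. Without trend and robust moderation 1 was called higher and 2 lower, the calls of TGFB2, TGFB1 and TGFBR1 being lost. The INHBA call was lost without parental replicate 1 and without resistant replicate 2, and that of TGFBR1 also without parental replicate 2. The calls of GDF15 and TGFBI held in all 12 settings. All 10 genes passed the filter on low values. Their median log2 fold change was −0.33, against −0.02 over all genes.

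Levels of different genes can be compared only per length. The length used was that of all annotated exons of a gene together, 7810 bases for TGFBI and 2087 for GDF15. It can exceed the length of the transcripts present, which was not determined. Orders, shares and ratios between genes in TPM depend on it, so close ranks are not settled. In parental cells the order of mean TPM was TGFBI at 723, TGFB2 at 319, TGFB1 at 112, TGFBR2 at 63.0, TGFBR1 at 53.4, GDF15 at 34.6, BMP4 at 18.6, TGFB3 at 7.40, INHBA at 4.51 and SMAD7 at 4.28. Only INHBA and SMAD7 overlapped with their neighbour in this order. In resistant cells GDF15 came first, at 588 and 498 TPM, followed by TGFB2 at 462 TPM in each library and TGFBI at 324 and 358. The order from TGFB1 down to TGFB3 was as before, and SMAD7 and INHBA came last, again overlapping.

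**Figure D3:**
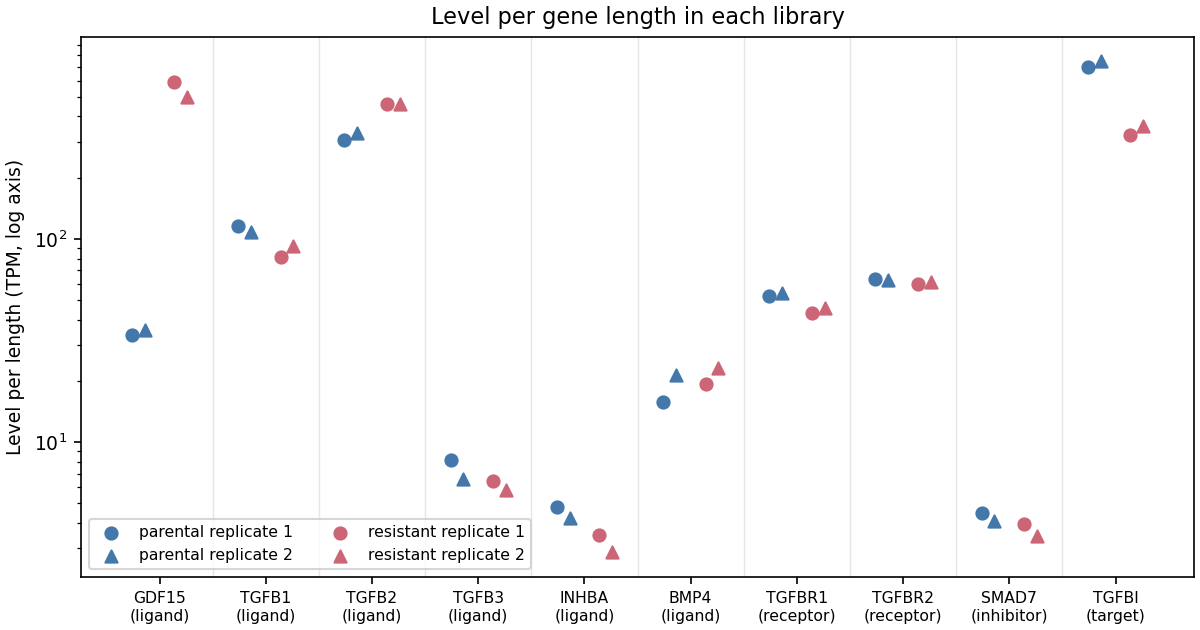
Level per gene length (TPM, log axis) of the 10 genes in the 4 libraries, circles for replicate 1 and triangles for replicate 2. GDF15 passes from 34.6 TPM, below both TGF-beta receptors, to a mean of 543 TPM, above TGFB2.

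The make-up of the ligand transcripts changed with this order. Summed over the 32 family ligand genes in the table, the level was 535 and 572 TPM in parental against 1216 and 1129 TPM in resistant libraries. GDF15 made up 6.28% and 6.22% of that sum in parental against 48.4% and 44.1% in resistant libraries. The sum without GDF15 was 501 and 536 TPM in parental against 628 and 631 TPM in resistant libraries. Among the 3 TGF-beta isoforms, TGFB2 supplied 71.2% and 74.2% of the summed TPM in parental against 84.0% and 82.5% in resistant libraries. The ratio of TGFB2 to TGFB1 was 2.64 and 3.06 against 5.69 and 5.02. TGFBI relative to TGFB2 was 2.28 and 2.25 in parental against 0.702 and 0.775 in resistant libraries. The ratio of TGFBR2 to TGFBR1 changed less, from 1.21 and 1.15 to 1.39 and 1.35.

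Around GDF15 on chromosome 19, 52 other coding genes were tested within 1 Mb. Of these, 9 were called higher and 5 lower, where 16.2% and 20.9% of all genes were, and their median log2 fold change was 0.02. The nearest tested gene upstream, PGPEP1, which encodes a peptidase that removes pyroglutamate, rose from 1042 and 1098 to 1846 and 2022 in deposited values (log2 fold change 0.85 ± 0.09 SE, limma adjusted p = 3.06e-04). The nearest on the other side, LRRC25, had a log2 fold change of −0.35 ± 0.42 (SE, adjusted p = 0.566). MIR3189, a microRNA gene inside GDF15, was listed at 0 in every library.

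**Figure D4:**
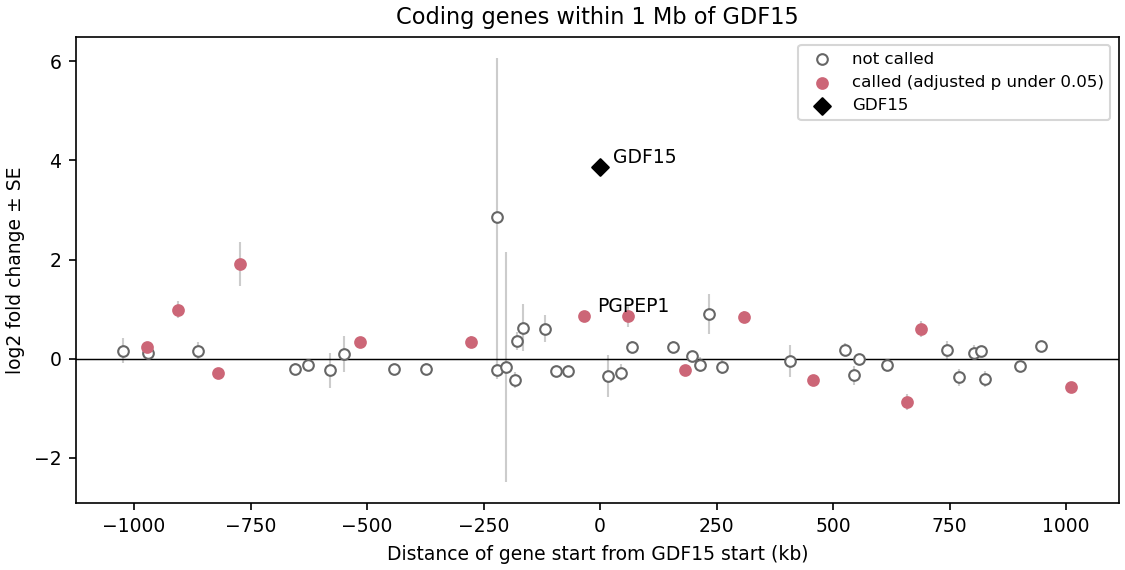
Log2 fold change with SE of coding genes within 1 Mb of GDF15, by the distance of their starts from the GDF15 start in kb. Filled circles are other genes called by limma and open circles are not called, and no called neighbour reaches the 3.87 of GDF15.

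The 5 coding genes whose deviations over the 4 libraries lay closest to those of GDF15 were PHF24, TNFRSF6B, HS6ST2, SAA2 and SAA1, at Euclidean distances of 0.22, 0.34, 0.44, 0.46 and 0.55 on the log2(value + 1) scale. TNFRSF6B encodes a decoy receptor for Fas ligand, SAA1 and SAA2 acute-phase proteins and HS6ST2 a heparan sulfate sulfotransferase. Only 4 libraries enter this measure, so it ranks genes mainly by the size of the difference. PHF24 and HS6ST2 passed the filter on low values only through the resistant libraries. PHF24 was near 0 in parental cells, with deposited values of 1.63 and 1.91 against 39.9 and 43.3 in resistant cells.

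Of 9 transcription factors known to act on GDF15, 5 rose and 0 fell, 55.6% against 37.1% of all genes, with a median log2 fold change of 0.32. This list was put together with earlier results of these data known, so its direction is not independent evidence. EGR1, an immediate early factor, rose 8.82-fold, from 448 and 393 to 3517 and 3910.04 in deposited values (limma adjusted p = 3.94e-06). The stress factors DDIT3 and ATF3 rose 3.66-fold and 3.40-fold (adjusted p = 2.02e-04 and 4.39e-05). ATF4, which acts upstream of both, rose 1.55-fold (adjusted p = 4.72e-04). The log2 fold changes of CEBPB, SP1, TFEB and TFE3, at 0.32, 0.12, −0.01 and −0.01, missed the threshold. CEBPB passed without resistant replicate 2 (0.0245) and SP1 with library totals (0.0385).

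Over all 124 further pathway genes, 94 were tested, and 18 of them rose and 21 fell. That is 41.5% called, against 37.1% of all genes, and the median log2 fold change was −0.04 against −0.02. The lists were put together with earlier results known, so this share and those by list below are not independent evidence. The 30 genes not tested were too low, except that GDF1 was not analysed here. GFRAL, the GDF15 receptor, was listed at 0 in all 4 libraries, and its co-receptor RET had values between 27.2 and 46.7 with a log2 fold change of −0.19 ± 0.32 (SE, limma adjusted p = 0.68).

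Among 9 other ligands tested, 2 were called higher and 1 lower, 33.3% against 37.1% of all genes. INHBE, the activin E subunit, rose 3.31-fold, from 43.9 and 65.0 to 264 and 121 (limma adjusted p = 0.0125), with a wide spread between the resistant libraries. The INHBE call was lost in 1 of 12 settings. GDF9, an oocyte factor and the other ligand called higher, had values of 4.07 and 3.82 against 17.3 and 11.9. It passed the filter on low values only through its resistant libraries, and it was not tested with a filter of 1 CPM or without either resistant replicate, so its call is not read further. GDF11, a relative of myostatin and the most abundant of these ligands per length, fell 1.66-fold, from 1392 and 1327 to 798 and 837 (adjusted p = 5.75e-04).

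Receptors and SMADs differed little. Of 11 other receptors, 1 rose and 1 fell, 18.2% against 37.1% of all genes. ACVR2A, a type II activin receptor, rose 1.45-fold (limma adjusted p = 0.041), and endoglin (ENG), a co-receptor for TGF-beta that is abundant in endothelium, fell 1.28-fold (0.0345). The endothelial markers above were lower in the same libraries, and their part in the ENG result was not tested. The ACVR2A call was lost without trend and robust moderation (limma adjusted p = 0.0588), without parental replicate 1 and without either resistant replicate. The ENG call was lost without trend and robust moderation (0.158), without parental replicate 2 and without resistant replicate 1. The type I receptors ACVR1, ACVR1B, ACVRL1, BMPR1A and BMPR1B had log2 fold changes of −0.01, −0.02, 0.07, −0.16 and 0.05. ACVR2B and BMPR2, of type II, had 0.07 and −0.17, and betaglycan (TGFBR3) 0.03, none past the test. BMPR2 passed as lower with the replicate block (adjusted p = 0.0309).

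Of the 6 SMADs that carry signals, SMAD2 fell 1.21-fold (limma adjusted p = 0.0409), from 1506 and 1366 to 1173 and 1198. This call was lost in 6 of 12 settings, among them scaling to library totals (adjusted p = 0.147), without parental replicate 1 (0.161) and without resistant replicates 1 and 2 (0.196 and 0.144). For SMAD3, SMAD4, SMAD1, SMAD5 and SMAD9 the log2 fold changes were 0.22, 0.16, −0.13, −0.07 and 0.05, none past the threshold. SMAD3 did pass with TMM scaling, with library totals and with the replicate block (adjusted p = 0.0339, 0.00577 and 0.00138). SMAD4 passed with library totals (0.0294).

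Of 10 tested intracellular inhibitors, 2 rose and 1 fell, 30% called, near the 37.1% of all genes. TGIF1, a SMAD corepressor, rose 1.38-fold (limma adjusted p = 0.0105), and LDLRAD4, which keeps SMADs from the receptor, rose 1.49-fold (0.0114). SMURF2, a ubiquitin ligase that acts with SMAD7, fell 1.33-fold (0.0108). Without resistant replicate 1 these calls were lost, and without resistant replicate 2 that of TGIF1. The SMURF2 call was also lost without trend and robust moderation (adjusted p = 0.0812). SMAD6, SKI, SKIL and PMEPA1 had log2 fold changes of −0.30, −0.29, −0.23 and −0.46, and SMURF1, BAMBI and TGIF2 of −0.07, 0.05 and 0.03, none past the test. SMAD6, SKI, SKIL and PMEPA1 passed as lower with the replicate block (adjusted p = 0.00231, 2.55e-04, 0.00758 and 0.0065). SKI also passed with TMM scaling (0.0437) and without parental replicate 1 (0.0161).

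Of 12 tested genes that store or release latent TGF-beta, 4 fell and 0 rose. The share called was 33.3%, near the 37.1% of all genes, of which 20.9% were called lower. LTBP1, which anchors latent TGF-beta in the matrix, fell 3.36-fold, from 377 and 362 to 103 and 116 (limma adjusted p = 1.43e-04). Fibrillin 1 (FBN1), the fibre to which it binds, fell 1.70-fold (6.77e-04). Thrombospondin 1 (THBS1), an activator of latent TGF-beta and the most abundant of this list per length, fell 1.52-fold (adjusted p = 0.0209), and NRROS, a latency partner of TGFB1, 1.66-fold (0.0295). The THBS1 call was lost in 3 of 12 settings, among them without parental replicate 2. The NRROS call was lost in 4 of 12, among them without parental replicate 2, resistant replicate 1 or resistant replicate 2.

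Of 10 tested secreted antagonists, 4 fell and 1 rose, 50.0% called against 37.1% of all genes, of which 20.9% were called lower. Follistatin (FST), which binds activin, fell 3.24-fold, from 1289 and 1395 to 391 and 438 (limma adjusted p = 4.55e-05). Its relative FSTL3 fell 1.94-fold (8.10e-04), the BMP regulator BMPER 4.17-fold (0.00163) and the BMP antagonist NBL1 1.65-fold (0.0052). The NBL1 call was lost in 1 of 12 settings. FSTL1, the most abundant of the list per length, rose 1.37-fold, from 11912 and 11821 to 16602 and 15965 (0.00126). Follistatin was lower together with INHBA, and the ratio of their TPM was 15.8 and 18.7 in parental against 7.04 and 9.19 in resistant libraries.

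Genes known to respond to TGF-beta went both ways. Of 21 tested, 6 rose and 7 fell, 61.9% called against 37.1% of all genes, with a median log2 fold change of −0.04. CDKN1A, the cell cycle inhibitor p21, rose 2.98-fold (limma adjusted p = 1.36e-05), BHLHE40 1.90-fold (1.01e-04), CCN2 (listed as CTGF) 1.83-fold (2.53e-04) and JUNB 2.07-fold (2.68e-04). TAGLN, an actin-binding protein of contractile cells, fell 3.17-fold (3.25e-05), IL11 7.61-fold (9.90e-05), the basement membrane collagen COL4A1 2.01-fold (1.51e-04) and the metalloprotease ADAM12 1.39-fold (0.00192). IL11 went from 200.1 and 176 to 25.6 and 22.1, and CCN2, the most abundant per length, from 9618 and 11260 to 19031 in each resistant library. ADAM12 lies on chromosome 10 in a stretch, from 120 Mb to 130 Mb, where the median log2 fold change of 38 coding genes was 0.45.

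Of 6 tested BMP-responsive genes, 1 rose and 2 fell, 50.0% called against 37.1% of all genes. ID1, an inhibitor of differentiation factors and the most abundant of them per length, fell 1.71-fold, from 1083 and 1252 to 757 and 609 (limma adjusted p = 0.00247). ID2 fell 1.51-fold (0.00911), a call lost without resistant replicate 1 (0.0529) or 2 (0.0514). The homeobox gene MSX1 rose 2.98-fold, from 71.6 and 119 to 282 and 272 (0.00175). BMP4 overlapped between the groups in the same libraries.

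**Figure D5:**
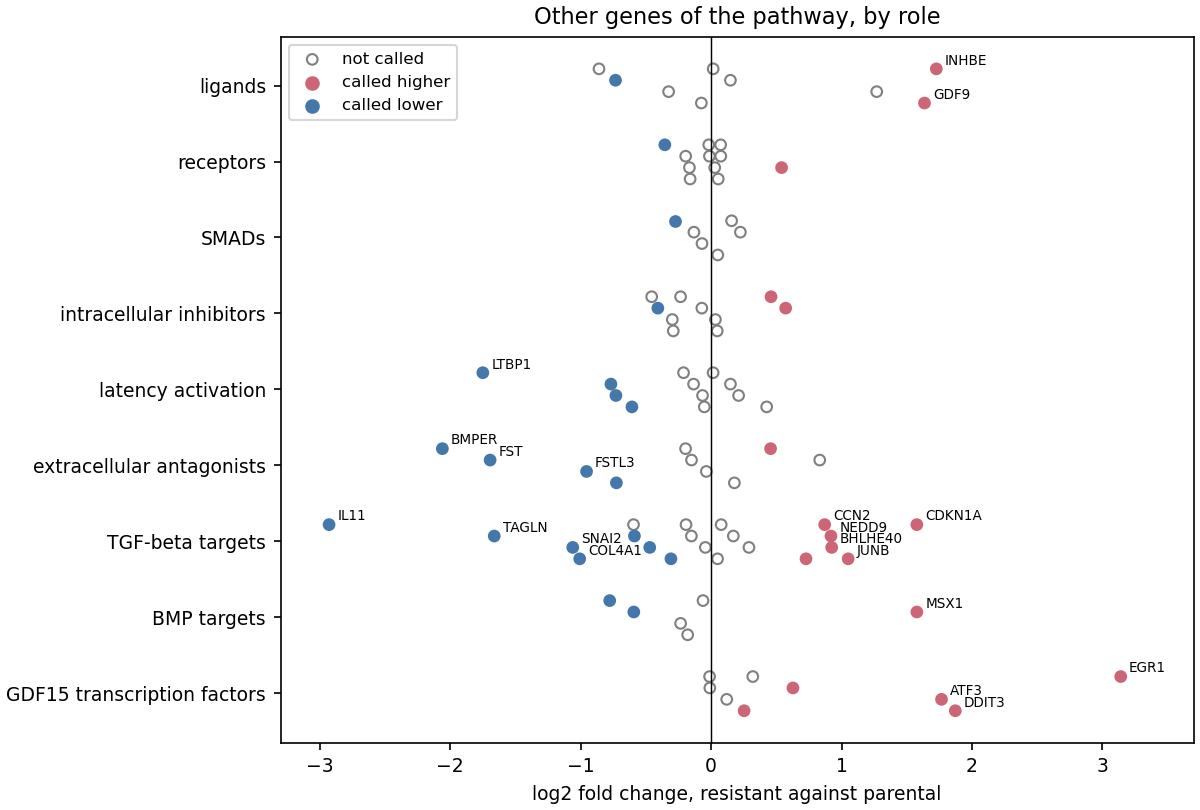
Log2 fold change, resistant against parental, of the tested pathway genes by role. Open circles are not called, red is called higher and blue called lower (limma), and called genes beyond 0.85 in size are labelled. Receptors and SMADs lie near 0, latency genes and antagonists reach −1.75 and −2.06, and TGF-beta targets spread to both sides.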

How the data were processed

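RNA of 2 parental and 2 resistant GBM8401 libraries was sequenced after strand-specific library preparation, per the labels' protocols. The authors deposited 1 table of signal values per gene, scaled fragments that are never negative, with 1 column per library. Cufflinks 2.2.1, Cuffdiff, SAMtools 1.2, HISAT2 2.1.0, Trimmomatic 0.36, bcl2fastq and the build GRCh38.p10 are named in the submitters' processing notes. Not given in the sources used here are the scaling method, annotation release and strand setting, so a gene and an overlapping antisense gene cannot be told apart.

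Low values fell on multiples of 1 step per library (0.753 to 0.956) in 95.7% to 96.1% of values up to 20 fragments, within 0.05, and the rest were fractions. The steps put the libraries at 27019137 to 30759939 fragments. Genes with a value of at least 10 in at least 2 libraries and a sum of at least 15 were tested with limma 3.58.1 under R 4.3.3, on log2(value + 1), with trend and robust moderation, the group alone and two-sided tests. P-values were adjusted over all 16132 genes (Benjamini-Hochberg, threshold 0.05). The fit was tested on simulated data. Log2(value + 1) folds understate changes of low genes.

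Symbols, positions and lengths for TPM, the union of all annotated exons of a gene, come from GENCODE 29 (57881 of 58219 IDs). Members and lists were chosen with earlier results of these data known. Named are the 10 members, every tested receptor, SMAD, intracellular inhibitor and GDF15 transcription factor, up to 4 called genes in each direction with the smallest adjusted p and the most abundant gene of each other list, the 5 genes nearest to GDF15, and overlapping or flanking genes. A gene that the rule names is counted but not reported here by name. Alternatives were pseudocounts, filters, scalings, the variance model, the replicate block and leaving out each library.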

Additional observations from a re-analysis of the deposited data

How the results depend on the processing

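With 2 libraries per group the variance estimate rests on moderation across genes. Of 5991 genes called, 3686 were called without trend and robustness, and 3593 to 5476 with 1 library left out, the lowest being 3593 without resistant replicate 1 and 3842 without resistant replicate 2; the lone library of a group is then assumed to vary like the others. Pathway genes called lower numbered 21 in the main fit and 13 without trend and robustness. Without 1 library the BMP4 log2 fold change ranged from −0.14 to 0.34, so its sign is not settled. The other 9 members kept their direction in all 12 settings. Called genes were higher in 43.7% of cases with the deposited scaling and in 56.9% with library totals, where the median of all genes moved from −0.02 to 0.08. With the replicate block, 8624 genes were called, and 24 pathway genes were higher and 30 lower. The labels tie no number to a shared culture, and the differences between replicates 1 and 2 correlated across genes at 0.27 between the groups. Of 39 other named genes that were called, 27 kept the call in every setting in which they were tested and 12 lost it in at least 1. None of the 64 other named genes reversed with a call. The planned edgeR and DESeq2 tests were not run, because the deposited values are not whole reads.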

Other observations

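Of all genes tested, 16.2% were called higher and 20.9% lower, and the counts below are of few genes each. Within 1 Mb of TGFBR1, itself lower, 6 of 12 tested coding genes were called higher and 0 lower, with a median log2 fold change of 0.43. Around TGFB3, 6 of 17 were higher and 0 lower, with a median of 0.20. Around BMP4, 6 of 9 were lower and 1 higher, with a median of −0.44. Within 1 Mb of TGFBI, 3 of 5 were lower, with a median of −0.24, against −1.18 for TGFBI itself. These are values of single neighbourhoods, and no test compared them with other regions.

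Some members share their locus with other genes. On the opposite strand, HNRNPUL1, a nuclear RNA-binding protein gene, overlaps TGFB1 and had deposited values of 14052 and 15214 in parental against 11729 and 12296 in resistant libraries (limma adjusted p = 0.0161), above those of TGFB1. CCDC97 and TMEM91 overlap it too, at log2 fold changes of 0.21 and 0.18, which missed the threshold. IFT43, a ciliary transport gene overlapping TGFB3 on the opposite strand, rose from 77.3 and 91.8 to 123 and 132 (adjusted p = 0.0421), while TGFB3 was lower. TGFB2-OT1, a transcript at the end of TGFB2 on the same strand, had values of 71.3 and 120.4 in parental against 149.9 and 159 in resistant libraries (adjusted p = 0.0536). INHBA-AS1 and TGFB3-AS1 had at most 0.85 in any library.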
